A study of Mus musculus with 12 samples.

Results

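Myelinating Schwann cell genes were followed through RNA of sorted tongue-innervating neurons of the trigeminal ganglion (TG) as a set of 8 genes, Mbp, Pmp22, Mag, Prx, Mal, Egr2, Cnp and Gldn. They were chosen by symbol, for their known place in peripheral myelin, and all 8 were found among the 22609 gene symbols with counts. All 8 also had enough reads to be tested. Schwann cells are the glia of peripheral nerves, and a myelinating Schwann cell wraps its membrane around a length of a large axon until most of the cytoplasm is squeezed out. The compacted layers are held together by proteins such as Pmp22 and Mbp, while Mag, Prx, Cnp and Gldn serve the uncompacted channels, the outer surface and the nodes between neighboring cells. In sensory ganglia such cells sheathe the axons of large neurons, whereas the cell bodies are covered by satellite glia.

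The 12 libraries came from 4 groups of 3 samples, males without (MN) and with (MT) a tongue tumor and females without (FN) and with (FT) one, all of Balb/c athymic nude mice of 6 to 8 weeks, which lack T cells. Tumor mice received 350000 HSC3 cells, a line from a human oral squamous carcinoma, in the tongue, and every group received the tracer wheat germ agglutinin (WGA) in the tongue on day 13 and was collected on day 15. A normal sample pooled 4 TGs of 2 mice and a tumor sample 4 ipsilateral TGs of 4 mice, so a sample is a pool and not an animal. Cells bright for WGA were sorted past gates against debris and clumps, with no marker of glia in the gate. The labels state that normal mice received no cells, while the methods of the study name normal oral keratinocytes in 1 place, and the strength of the WGA solution also differs between them, so neither point was settled.

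Between 4592891 and 8922011 reads per library were counted on genes, and CPM is a gene's reads per 1000000 of these. The share of multi-mapped reads was 56.0% in FN2, 68.4% in FT2 and 52.6% in FT3, against 43.0% to 45.5% in the other 9 libraries, where a name such as FN2 stands for replicate 2 of FN. Results that rest on these 3 libraries are given with and without them. The share is over all entries of the counts, in which a read aligned to several places may stand more than once. The labeled cell type is the neuron. Of 12 sensory neuron genes, Calca (3242 to 11272 CPM), Tubb3 (1943 to 6006), Prph (1564 to 4290) and Uchl1 (1632 to 3609) had the highest means. These were above the other 9 libraries in FN2 and FT3 and below them in FT2. Avil, of the same list, was at 242, 663 and 425 CPM in FN2, FT2 and FT3, against 1148 to 1526 CPM in the other 9. Trpv1 was at 11.4, 5.44 and 35.1 CPM, against 150 to 263 CPM. The 8 myelin genes together took 1174 to 3719 CPM, of which Pmp22 alone took 553 to 1950 CPM. Which of the sorted cells this RNA came from was not tested. In such bulk RNA fewer myelinating cells cannot be told apart from less of this RNA per cell. Mbp, Mag, Mal and Cnp are also genes of oligodendrocytes, the myelinating cells of the brain and spinal cord. The 9 genes of an oligodendrocyte list summed to 13.7 to 42.0 CPM. The defining markers Opalin and Olig2 were at 0 in 12 and 11 libraries and Mog did not pass 0.411 CPM, while Aspa lay at 6.05 to 37.5 CPM and Nkx6-2 at 1.78 to 12.2 CPM, and Mobp, Cldn11, Ermn and Hapln2 reached 5.62, 5.21, 4.35 and 1.31 CPM. Their part in the values of the 8 genes was not tested.

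Egr2 is the transcription factor that drives the myelin program together with Sox10, so the promoters of the members are shown where they hold the letters of an EGR or a SOX core. Promoters were taken from RefSeq (build GRCm38.p6), from 250 bases before to 50 bases after a gene's start. Those of 7 of the 8 members were searched, and no promoter of Mbp was included. The letters GCGTGGG or their reverse complement CCCACGC were found in 2 of 16 promoters, those of Cnp and Prx, and in 5.04% of 32851 promoters of all genes. The letters ACAAAG or their reverse complement CTTTGT were found in 3 of 16 promoters and in 18.7% of all promoters. The 3 were that of Cnp and 2 overlapping promoters of Mag, which share the same site. Both searches covered both strands, the motifs do not overlap each other, and none of the promoters of Egr2, Gldn, Mal and Pmp22 held either. The promoters of Cnp (chr11:100574689-100574988, plus strand), Prx (chr7:27499074-27499373, plus strand) and Mag (chr7:30914814-30915113, minus strand) follow, 5′ to 3′, with the matches in capitals, in Cnp the SOX core first and the EGR core second.
Cnp promoter: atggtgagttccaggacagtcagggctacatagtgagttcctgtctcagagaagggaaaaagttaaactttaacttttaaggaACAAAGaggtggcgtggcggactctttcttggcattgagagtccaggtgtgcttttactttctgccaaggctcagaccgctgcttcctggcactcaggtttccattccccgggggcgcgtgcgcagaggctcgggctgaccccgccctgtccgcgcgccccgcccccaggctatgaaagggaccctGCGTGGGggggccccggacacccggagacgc
Prx promoter: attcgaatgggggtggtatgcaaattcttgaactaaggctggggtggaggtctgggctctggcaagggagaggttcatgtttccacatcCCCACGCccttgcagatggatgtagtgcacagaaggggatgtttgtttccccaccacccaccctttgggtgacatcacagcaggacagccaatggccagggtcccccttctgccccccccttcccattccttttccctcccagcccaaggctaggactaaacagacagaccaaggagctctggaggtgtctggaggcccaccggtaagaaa
Mag promoter: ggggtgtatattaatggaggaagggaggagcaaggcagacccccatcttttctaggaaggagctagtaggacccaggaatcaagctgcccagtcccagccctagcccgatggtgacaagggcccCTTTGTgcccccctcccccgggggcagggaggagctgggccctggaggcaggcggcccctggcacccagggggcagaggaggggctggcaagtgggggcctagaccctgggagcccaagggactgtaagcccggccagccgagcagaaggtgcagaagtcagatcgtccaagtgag
The first base of the EGR core lay 161 bases before the start of Prx and 19 bases after that of Cnp, and the SOX core began 167 bases before the start of Cnp and 126 bases before that of Mag. The letters were chosen with these sequences in view, and a match describes the sequence and is not a measured binding site.

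Among the proteins of compact myelin, Pmp22, a membrane protein whose gene dosage is known to matter for nerve conduction, had the most reads. Its gene lies at chr11:62942484-62973049 on mm9, the build of all gene positions given from here on (GENCODE M1). In MN it measured 1208, 1217 and 1132 CPM in replicates 1 to 3, in MT 1147, 1143 and 1316 CPM, in FN 1242, 1241 and 1304 CPM, and in FT 1287, 553 and 1950 CPM. The 3 FN libraries lay above the 3 MN libraries by a small margin, FT2 was the lowest and FT3 the highest of all 12, and the other 10 libraries differed little.

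Mbp encodes myelin basic protein, which holds the cytoplasmic faces of the membrane together. Its MN values were 434, 367 and 436 CPM, its MT values 227, 305 and 584 CPM, its FN values 535, 541 and 533 CPM, and its FT values 476, 218 and 1096 CPM. The FN libraries were close to each other and all above MN, whereas MT and FT each held both a low and a high library. Mal, a lipid raft protein of the myelin membrane (chr2:127458962-127482431), measured 153, 111 and 162 CPM in MN, 94.1, 170 and 264 CPM in MT, 308, 154 and 260 CPM in FN, and 182, 190 and 173 CPM in FT. FN1 and FN3 were above every MN library and FN2 lay within their range.

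Cnp, an enzyme that keeps cytoplasmic channels of myelin open (chr11:100436218-100453043), measured 210, 218 and 256 CPM in MN, 169, 219 and 342 CPM in MT, 334, 229 and 327 CPM in FN, and 390, 169 and 417 CPM in FT. Its lowest libraries were MT1 and FT2, its highest FT1 and FT3, and all groups overlapped. Prx, a scaffold that ties the outer Schwann cell membrane to the basal lamina (chr7:28284343-28305233), measured 66.2, 73.9 and 80.7 CPM in MN, 27.9, 53.5 and 97.7 CPM in MT, 86.7, 29.5 and 98.3 CPM in FN, and 91.9, 23.7 and 54.9 CPM in FT. MT1, MT2, FN2, FT2 and FT3 were each under every MN library, and MT1, FN2 and FT2 were the lowest, at 27.9, 29.5 and 23.7 CPM.

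Mag, an adhesion protein that faces the axon (chr7:31684202-31699851), was low. It measured 10.1, 6.39 and 7.23 CPM in MN, 2.77, 3.47 and 11.0 CPM in MT, 7.04, 4.44 and 6.44 CPM in FN, and 7.54, 0.871 and 12.1 CPM in FT. The FT2 value rests on 4 reads, with an exact 95% binomial interval from 0.237 to 2.23 CPM, which covers counting error only, since reads without molecular identifiers are not independent molecules. Gldn, gliomedin, which gathers sodium channels at the node (chr9:54134293-54189593), measured 5.20, 5.49 and 7.11 CPM in MN, 3.52, 7.36 and 13.2 CPM in MT, 8.17, 4.70 and 15.6 CPM in FN, and 11.9, 19.2 and 5.44 CPM in FT. FT2, the lowest library for 6 members, was the highest for Gldn, where it held 88 reads (exact 95% interval 15.4 to 23.6 CPM).

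Egr2 itself (chr10:66998223-67004936) was the steadiest member in MN, at 19.0, 18.6 and 19.1 CPM. It measured 19.0, 14.0 and 26.3 CPM in MT, 21.0, 2.61 and 17.8 CPM in FN, and 21.0, 0.871 and 9.62 CPM in FT. The 9 libraries outside FN2, FT2 and FT3 lay between 14.0 and 26.3 CPM, and the 3 that stand apart were all below them. FN2 held 20 reads of Egr2 (exact 95% interval 1.59 to 4.03 CPM) and FT2 held 4 (0.237 to 2.23 CPM), so counting error does not span the gap to the other libraries.

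**Figure D1:**
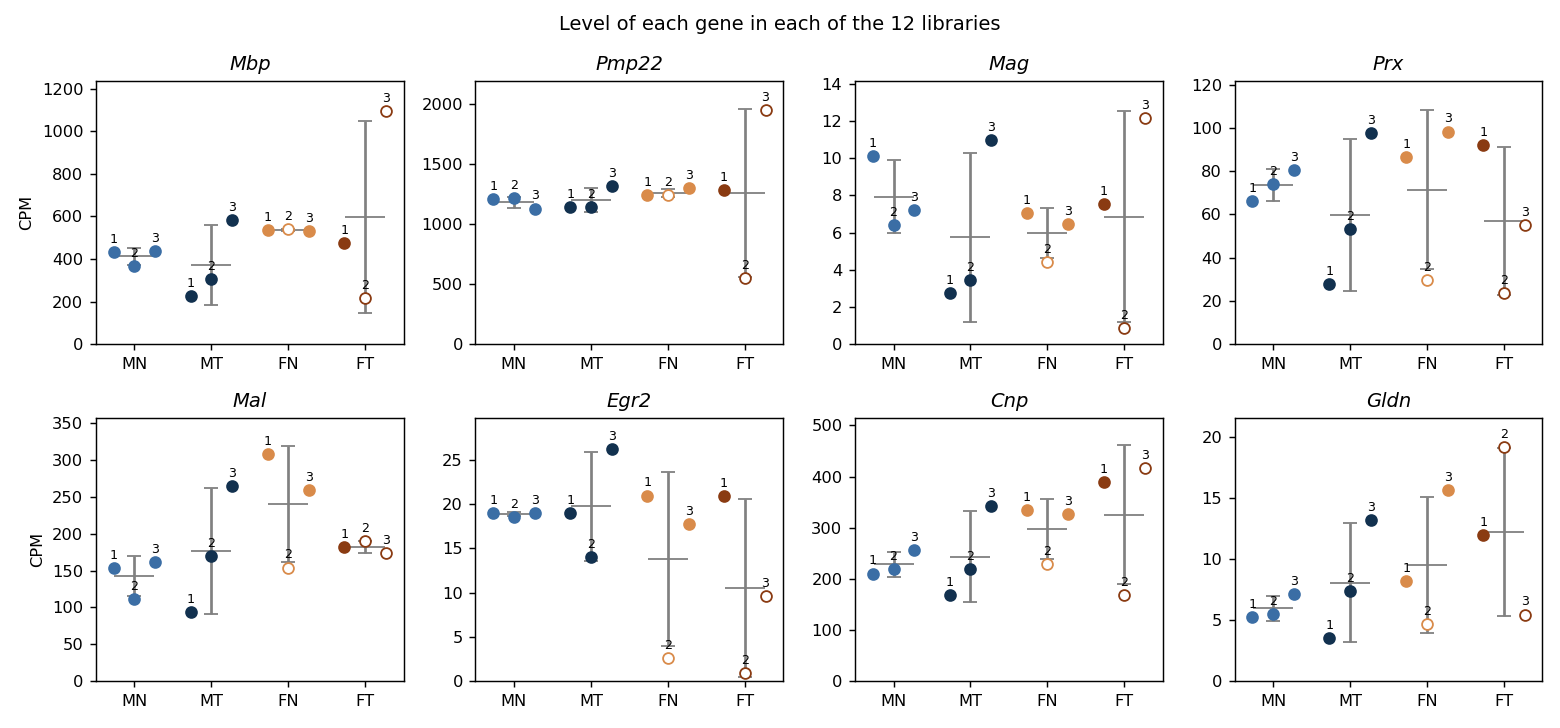
CPM of each of the 8 genes (vertical axis, linear from 0) in the 3 libraries of each group (horizontal axis), where points are libraries with their replicate numbers, open points are FN2, FT2 and FT3, and the gray dash and bars are the mean ± SD (n = 3). In MT library 3 is the highest for every gene, and Egr2 is lowest in FN2 and FT2.

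Levels of different genes were compared per length of exon, as RPKM. In MN, Pmp22 was at 504 ± 19.7 RPKM (SD, n = 3), followed by Cnp at 62.7 ± 6.69, Mal at 51.2 ± 9.72 and Mbp at 49.0 ± 4.68 RPKM. Prx was at 13.2 ± 1.30, Egr2 at 5.56 ± 0.0704, Mag at 3.26 ± 0.807 and Gldn at 1.27 ± 0.221 RPKM. The MN ranges of Cnp (57.8 to 70.3 RPKM) and Mal (40.1 to 58.4 RPKM) overlapped, but Cnp was above Mal within each MN library. The ranges of Mal and Mbp (43.6 to 51.8 RPKM) also overlapped. Mal was above Mbp in MN1 and MN3 and below it in MN2, so their order was not settled by the replicates. Every other pair of neighbors in the order was apart in MN. Pmp22 had the highest RPKM of the 8 in all 12 libraries. Its level against Mbp varied from 6.35 to 18.0 times that of Mbp over the 12 libraries, as a ratio of RPKM.

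In the male libraries the members moved largely together from sample to sample. MT3 was the highest of the 6 male libraries for all 8 genes, and MT1 was the lowest for 6. MT3 exceeded MT1 by 3.97-fold for Mag, 3.75-fold for Gldn, 3.50-fold for Prx, 2.81-fold for Mal, 2.57-fold for Mbp and 2.02-fold for Cnp, against 1.38-fold for Egr2 and 1.15-fold for Pmp22. The median tested gene was 1.07-fold higher in MT3 than in MT1, and 10.3% of tested genes were at least 2-fold higher. The same library held 144 CPM of 10 macrophage genes together, against 8.43 and 13.6 CPM in MT1 and MT2, and 958 CPM of 8 endothelial genes, against 380 and 638 CPM. The summed level of 6 satellite glia genes was 535 CPM in MT3 and 412 and 426 CPM in MT1 and MT2, and that of 12 neuronal genes was 18061, 20174 and 19139 CPM in MT3, MT1 and MT2. The part of these cells in the spread of the myelin genes was not tested.

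Over the 9 libraries the standard deviation of log2 CPM was 0.67 for Gldn, 0.62 for Mag, 0.58 for Prx, 0.57 for Mal, 0.44 for Mbp, 0.41 for Cnp and 0.24 for Egr2. Pmp22 stood at 0.08, and only 3.44% of tested genes had a lower value. The median tested gene had 0.24, so 6 members varied more than most genes, Egr2 about as much, and Pmp22 less.

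The 3 libraries with more multi-mapped reads did not move the members in a common direction. FT2 was below all 9 others for 6 members, above all of them for Gldn and within their range for Mal. The values of FT2 were 16.9-fold under the median of the 9 libraries for Egr2, 6.42-fold for Mag, 3.37-fold for Prx and 2.20-fold for Pmp22. In FT2 the median tested gene was 1.49-fold under, and 53.1% of tested genes were below all 9. These CPM carry no normalization factors. FT3 was above all 9 for Mbp (2.52-fold over their median), Mag (1.70-fold), Cnp (1.63-fold) and Pmp22 (1.60-fold), and below them for Egr2 (1.95-fold under). FN2 was below all 9 for Egr2 (6.70-fold under) and within their range for the other 7. Of all tested genes, 77.8% lay outside the range of the 9 libraries in FN2, 79.5% in FT2 and 71.3% in FT3, and of the 8 members 1, 7 and 5 did.

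**Figure D2:**
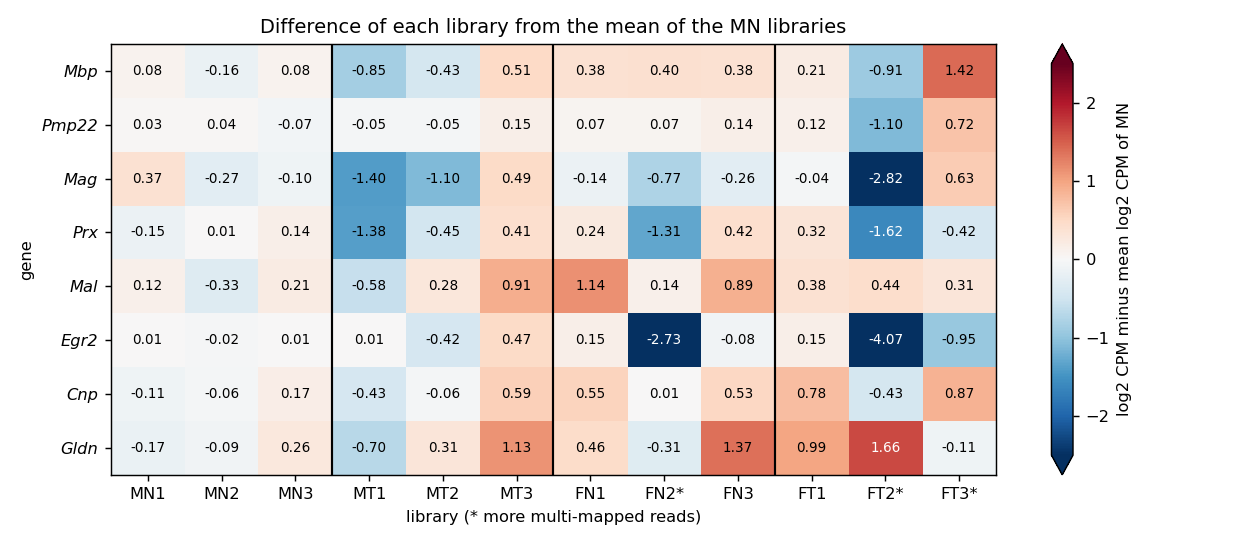
Log2 CPM of each gene (rows) in each library (columns) minus the mean log2 CPM of the 3 MN libraries, where numbers in the cells are these differences, red is higher and blue lower than MN, colors end at the ends of the bar, and asterisks mark FN2, FT2 and FT3. MT1 is blue or near 0 and MT3 red throughout, and FT2 is blue for all but Mal and Gldn.

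FN versus MN asks whether normal females and males differ. With edgeR's quasi-likelihood test on all 12 libraries no member passed an adjusted p of 0.05, and neither did any other of 13360 tested genes, of which 744 (5.57%) had an unadjusted p under 0.05. DESeq2 called 20 genes and limma-voom 800 at an adjusted p under 0.05. The study kept genes that changed by over 1.5-fold at an unadjusted p under 0.05 and whose mean was over 5 RPKM in either group. Mal was the 1 member of 8 that met these criteria, against 3.69% of tested genes, with 241 ± 78.9 CPM in FN and 142 ± 27.0 CPM in MN (SD, n = 3). Its log2 fold change was 0.82 (SE 0.38, unadjusted p = 0.0471, edgeR adjusted p = 0.809), and FN was higher than every MN library in 2 of 3 samples.

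The other members had log2 fold changes of 0.72 (Gldn), 0.49 (Mbp), 0.46 (Cnp), 0.20 (Pmp22), -0.01 (Prx), -0.33 (Mag) and -0.45 (Egr2), with SEs from 0.35 to 0.70. Mbp and Pmp22 were the 2 members whose groups did not overlap, FN being higher, against 19.8% of tested genes without overlap and 9.66% with FN higher. For Mbp the edgeR adjusted p was 0.814 and for Pmp22 it was 0.877.

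Mal kept its direction in all 24 alternatives, at log2 fold changes of 0.66 to 1.01. Its call changed with the fit. With limma-voom and sample quality weights it was 1.01 (adjusted p = 0.00742, where 5.99% of tested genes were called), and with FN and MN alone and FN2 left out it was 0.95 (SE 0.14, edgeR adjusted p = 0.00197), while in the 4-group fit of 9 libraries it was also 0.95 with an edgeR adjusted p of 0.158. Cnp passed in 1 alternative, FN and MN alone without FN2, at 0.48 (SE 0.10, edgeR adjusted p = 0.0138). That fit called 728 genes (5.53%), and over its alternatives the adjusted p of Mal ran from 0.00197 to 1.00 and that of Cnp from 0.0138 to 1.00. Without FN2, 6 members lay above MN in both remaining FN libraries, Mbp, Pmp22, Prx, Mal, Cnp and Gldn, whereas 23.2% of tested genes did so, and Mag and Egr2 overlapped. Markers of other cells moved with this comparison. The 10 macrophage genes summed to 106 to 242 CPM in FN and 15.0 to 24.9 CPM in MN, and 9 of 10 had an unadjusted p under 0.05 and were higher (5.21% of tested genes). The 6 satellite glia genes summed to 879, 582 and 915 CPM in FN1, FN2 and FN3 against 611 to 658 CPM in MN. Without FN2 their sums in FN were thus above those of every MN library. Of 8 endothelial, 6 neutrophil, 6 fibroblast and 6 pericyte genes, 1, 3, 2 and 2 were higher at an unadjusted p under 0.05. Their part in the values of the myelin genes was not tested.

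**Figure D3:**
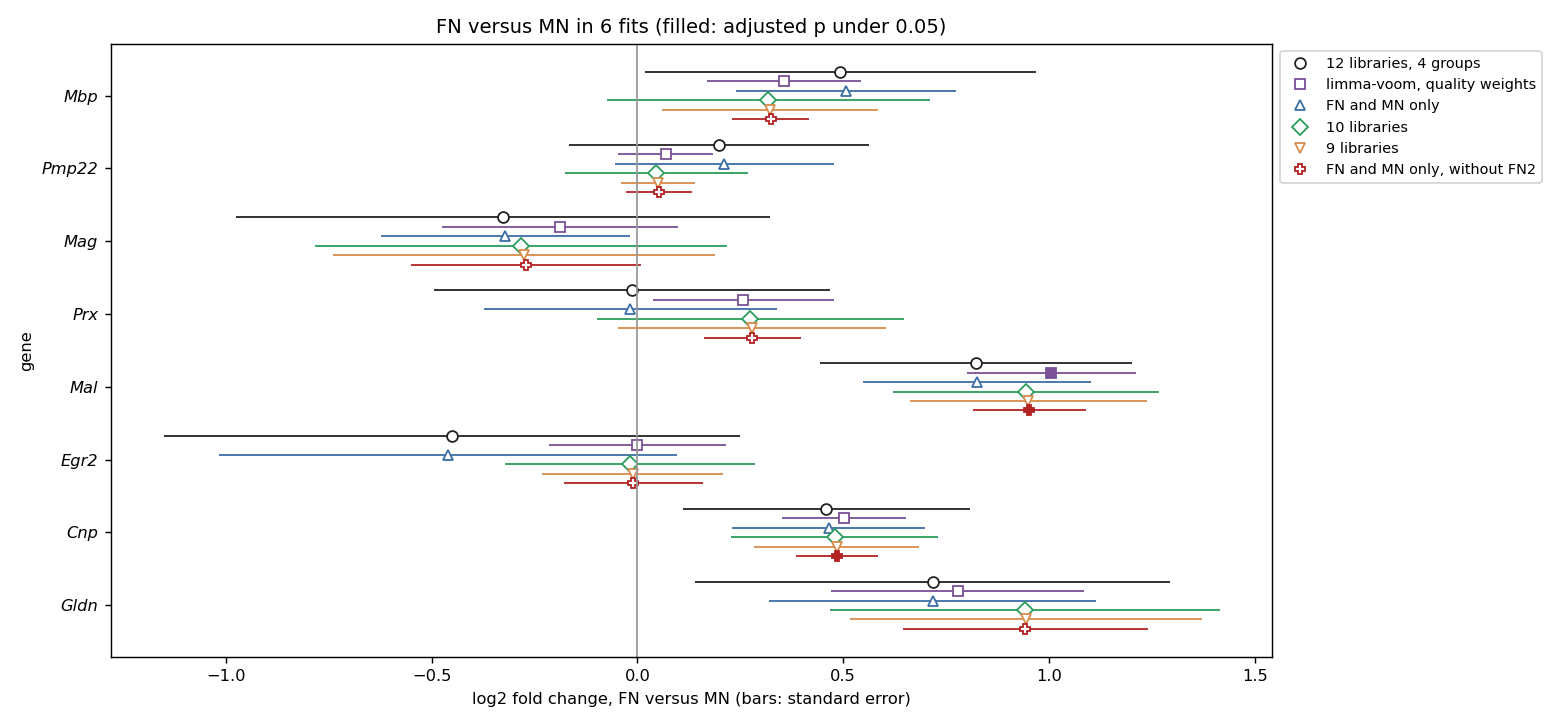
Log2 fold change of FN versus MN (horizontal axis) for each gene (vertical axis) in 6 fits, with bars of 1 SE and symbols filled at an adjusted p under 0.05. That holds for Mal in 2 fits and for Cnp in 1, and Mal lies right of 0 in every fit shown, from 0.82 to 1.01.

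MT versus MN asks what the tongue tumor changed in males. No member had an unadjusted p under 0.05 in the edgeR test, the lowest being 0.417 for Mal, against 0.426% of 13835 tested genes, and all 8 overlapped, where 13.1% of tested genes did not. No gene of any kind had an adjusted p under 0.05 by edgeR, with 59 at an unadjusted p under 0.05, and DESeq2 called 2 and limma-voom 47. Fitted log2 fold changes ran from -0.46 (SE 0.65) for Mag to 0.44 (SE 0.58) for Gldn. With limma-voom 3 of 8 members, all lower in MT, had an unadjusted p under 0.05, against 6.14% of tested genes lower and 11.3% in either direction. They were Mag at -0.90 (SE 0.29), Prx at -0.51 (SE 0.20) and Mbp at -0.36 (SE 0.17), with limma-voom adjusted p of 0.210, 0.328 and 0.442. With MT3 in the edgeR fit 5 members were above MN. Without it Mbp was at -0.59, Mag at -1.29, Prx at -0.82, Cnp at -0.19, Egr2 at -0.15, Gldn at -0.09, Mal at -0.06 and Pmp22 at -0.01, so that all 8 were below MN, and none had an edgeR adjusted p under 0.05. For each of the 8 the SD of CPM within MT was larger than the difference of the MT and MN means.

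FT versus FN asks the same in females. The edgeR test gave no member an unadjusted p under 0.05, the lowest being 0.351 for Gldn, against 3.82% of 13835 tested genes, and all 8 overlapped, where 2.49% did not. The edgeR test gave 0 genes with an adjusted p under 0.05 and 528 at an unadjusted p, and DESeq2 and limma-voom gave 0. Log2 fold changes ran from -0.34 (SE 0.71) for Egr2 to 0.55 (SE 0.57) for Gldn. Mbp was at 0.16 with all libraries and at -0.61 without FT3, Pmp22 at 0.01 and -0.44, and Mag at 0.23 and -0.48. Gldn was at 0.55 with all libraries and at -0.15 without FT2. Over the 10 libraries without FN2 and FT2, Mal had the lowest fold change, -0.58 (SE 0.36, edgeR adjusted p = 0.379), and its FT libraries, at 182 and 173 CPM, were both under FN at 308 and 260 CPM, where 25.7% of tested genes were lower without overlap.

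FT versus MT compares females with males that both carry a tumor. In the edgeR test of 12 libraries no member passed an unadjusted p of 0.05, against 12.1% of 13360 tested genes, and all 8 overlapped, where 17.6% did not. The edgeR test called 0 genes at an adjusted p under 0.05 and 1610 at an unadjusted p, DESeq2 called 248 and limma-voom 0, and without FT1 edgeR called 755, none of them a member. Gldn was at 0.83 (SE 0.58, edgeR adjusted p = 0.513), Mbp at 0.80 (SE 0.48, adjusted p = 0.465), Cnp at 0.54 (SE 0.35, adjusted p = 0.489) and Egr2 at -0.87 (SE 0.71, adjusted p = 0.572). Over 10 libraries Mbp (1.16, SE 0.39) and Cnp (0.77, SE 0.25) met the criteria of the study, against 13.9% of tested genes, both with an edgeR adjusted p of 0.192. With limma-voom on 12 libraries the same 2 members met them, at 0.93 (SE 0.44) and 0.74 (SE 0.35), both with an adjusted p of 0.552, against 7.84% of tested genes. Both values were lower without FT3. Without FT3 alone Mbp was at 0.02 and Cnp at 0.32, and over 9 libraries, where FT1 is the only FT library and its spread is taken from the other groups, Mbp was at 0.31 and Cnp at 0.63, neither with an edgeR adjusted p under 0.05.

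**Figure D4:**
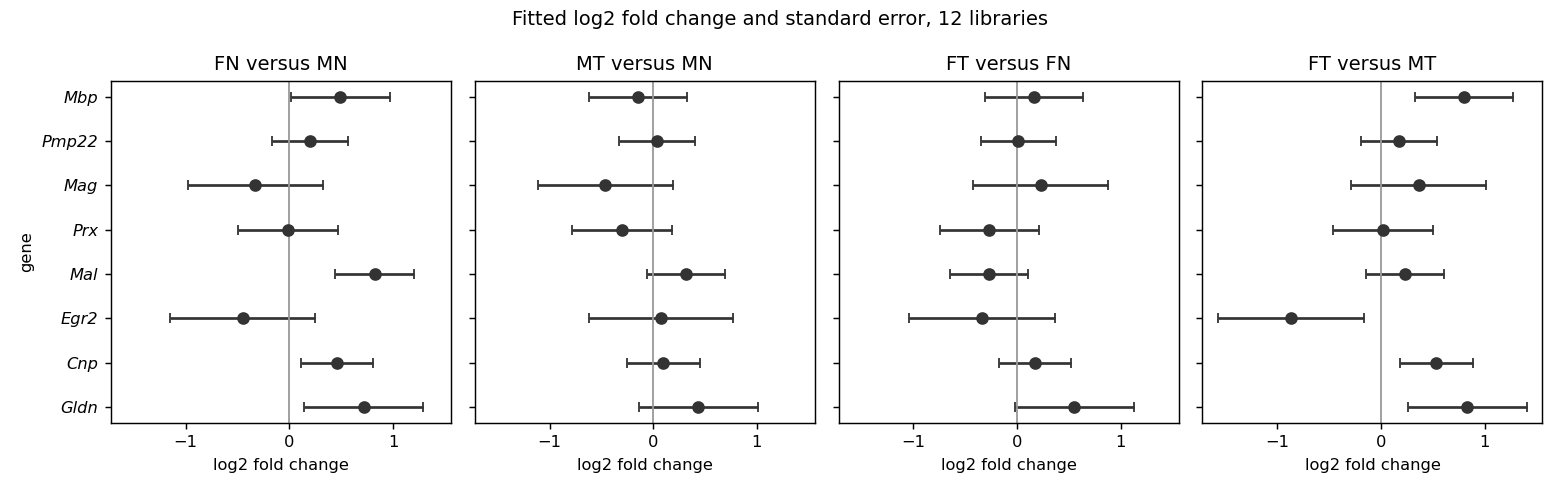
Log2 fold change of each gene (vertical axis) in the 4 comparisons of groups, from edgeR's fit of 12 libraries, with bars of 1 SE. The points lie between -0.87 and 0.83, and no gene has an adjusted p under 0.05.

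Whether the tumor effect differed between females and males was tested as an interaction. It ran from -0.59 (SE 0.53) for Mal to 0.69 (SE 0.92) for Mag on the log2 scale, and the lowest unadjusted p was 0.289, for Mal, where 1.47% of tested genes had an unadjusted p under 0.05. The effect averaged over the sexes ran from -0.28 (SE 0.34) for Prx to 0.49 (SE 0.41) for Gldn, and the lowest unadjusted p was 0.244, for Gldn, against 1.12% of tested genes under 0.05. In both tests edgeR gave 0 genes with an adjusted p under 0.05, from 203 and 155 genes at an unadjusted p, and DESeq2 called 0 and 1.

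Other genes of the myelinating cell were read beside the 8. In FN versus MN, 5 of 13 signals and regulators of myelination had an unadjusted p under 0.05 and were higher, against 5.21% of tested genes, with a median log2 fold change of 0.79 over the list, 0.33 over the 8 members and 0.07 over all tested genes. None had an adjusted p under 0.05. Sox10, the factor that acts with Egr2, was at 27.4, 28.9 and 40.4 CPM in MN and 78.9, 39.7 and 74.7 CPM in FN, with a log2 fold change of 1.06 (SE 0.35, edgeR adjusted p = 0.809). Lgi4, a secreted protein that Schwann cells need to myelinate, was at 38.8, 40.8 and 48.0 CPM in MN and 88.0, 45.0 and 84.2 CPM in FN, with a log2 fold change of 0.83 (SE 0.34, adjusted p = 0.809). Sox10 is also made by satellite glia and by Schwann cells that form no myelin. Adam22, which had the highest mean of the list, was at 165, 195 and 175 CPM in MN and 121, 96.4 and 120 CPM in FN. It was thus lower in FN without overlap, as were 10.2% of tested genes. Zeb2 was at 40.8, 27.0 and 31.4 CPM in MN and 33.3, 13.2 and 36.6 CPM in FN, with overlap. FN2 was the lowest FN library for Sox10, Lgi4, Adam22 and Zeb2, as it was for every member but Mbp.

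Of 7 genes of the uncompacted channels and the outer surface, 3 of 5 tested had an unadjusted p under 0.05 and were higher in FT than in MT, against 9.96% of tested genes, with a median of 1.04 for the list against 0.30 for the members and 0.07 for all tested genes. Of 8 genes of myelin lipid synthesis, 7 were tested, 1 was higher and 1 lower at that threshold, and Hmgcs1 was listed at 0 in all libraries. In MT versus MN no gene of these lists or of the list of regulators passed an unadjusted p of 0.05. The 7 genes of the uncompacted channels and the outer surface summed to 271, 155 and 141 CPM in FT1, FT2 and FT3. In MT they summed to 143 to 274 CPM. Dag1, the highest of them by mean, was at 162, 59.7 and 40.4 CPM in FT and 89.3, 129 and 164 CPM in MT. Gjc3 was at 18.4, 36.6 and 28.3 CPM in FT and 7.55, 6.67 and 17.0 CPM in MT, so its highest values were those of FT2 and FT3.

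Genes of axons at the node and paranode, which face the myelin, were read in the same way. In FN versus MN 8 of 9 tested had a log2 fold change below 0, and none had an unadjusted p under 0.05. Their median was -0.40, against 0.07 over all tested genes. They summed to 1104, 682 and 1042 CPM in FN1, FN2 and FN3, against 1251 to 1475 CPM in MN. Of the genes of non-myelinating and repair Schwann cells, 7 of 11 were tested in FN versus MN, and none passed an unadjusted p of 0.05 (median 0.07). Ngfr and L1cam of that list are also made by sensory neurons. In FT versus MT the 10 macrophage genes were all higher, 6 of them at an unadjusted p under 0.05 with a median of 2.06, and 4 of 6 satellite glia genes were higher at that threshold, with a median of 1.09, against the same 9.96% of tested genes. Whether these cells contribute to the values of the members was not tested.

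Likeness among the members was described by Pearson's r of log2 CPM (prior count 2) between genes. The libraries share depth and composition, so no p is given. Over 12 libraries the 28 pairs had r from -0.44 to 0.86 with a median of 0.51, and all 4 negative values were pairs of Gldn, the lowest of them with Pmp22. Over the 9 libraries the range was 0.31 to 0.95, the median 0.76 and no value was negative. Mbp and Prx were the closest pair over 9 libraries (r = 0.95), followed by Cnp and Gldn (0.90), and Egr2 had the lowest median r with the others (0.51). Mag and Pmp22 were closest over 12 libraries (0.86).

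**Figure D5:**
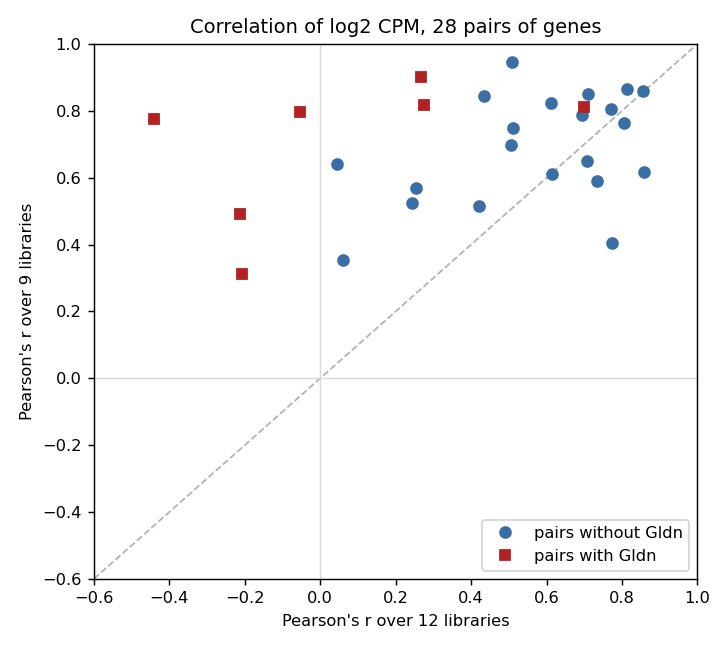
Pearson's r of log2 CPM for the 28 pairs of members, over 12 libraries (horizontal axis) and over the 9 libraries without FN2, FT2 and FT3 (vertical axis), where red squares are pairs that contain Gldn, and the dashed line marks equal values. The squares left of 0 lie between 0.31 and 0.80 on the vertical axis.

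The mean standardized log2 CPM of the 8 members was also compared with each of 13661 genes that had a mean of at least 1 CPM. Over 12 libraries Rab3il1 (r = 0.943), Dmd (0.941), which encodes dystrophin, and Nkd1 (0.939) were the most alike. Over 9 libraries they were Pan2 (0.975), Zfyve26 (0.974) and 9530059O14Rik (0.969), and none of the 10 highest genes was common to both sets. No other gene of the myelin lists was among either 10. The libraries at the extremes of this mean were FT2, the lowest, and MT3, the highest, in the 12 libraries, and MT1 and MT3 in the 9.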

How the data were processed

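RNA of sorted WGA-bright TG cells was amplified with SMART-seq2 and read as 50-base single reads. Per the labels and the methods of the study, the authors called bases with CASAVA 1.8.2, aligned reads to mm9 with TopHat2 and deposited raw read counts per gene from HTSeq, unnormalized, for each of the 12 samples. The versions of TopHat2, SAMtools and HTSeq, the annotation and the strand setting are not given in the sources used here, so reads of overlapping or antisense genes could be shared. Between 76.3% and 88.8% of the entries in the counts were assigned to no gene and were left out of library sizes. A read aligned to several places may be entered more than once among them.

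CPM and RPKM (exon lengths of GENCODE M1, matched for 95.7% of 22609 symbols) were computed from the counts. Groups were compared with edgeR 4.0.16 (quasi-likelihood test, TMM, filterByExpr with a minimum count of 10 and a total of 15, all 4 groups in 1 fit, Benjamini-Hochberg adjustment over all tested genes) in R 4.3.3. Genes of the X and Y chromosomes were left out between the sexes. DESeq2 1.42.0, limma 3.58.1, other normalizations, filters, samples and a replicate block were the alternatives. A library is a pool of ganglia, and p-values measure the spread between pools. All members were named, with genes of the lists in the text, and some genes of compact myelin are not reported here. The members and lists were chosen with earlier results of these data known.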

Additional observations from a re-analysis of the deposited data

How the results depend on the processing

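Of 1112 alternative values of the 48 log2 fold changes (8 members in 6 comparisons), 1001 kept their sign and their side of an adjusted p of 0.05, 108 had the other sign, all with an adjusted p of at least 0.200, and 3 newly passed the threshold. For 14 of the 48 no alternative gave the other sign. With 12 libraries edgeR called 0 genes in all 6 comparisons, and 493, 21, 301 and 1090 genes met the criteria of the study in FN and MT versus MN, FT versus FN and FT versus MT, in this order. Counts over 1.5 times away from these and log2 fold changes of the other sign follow, beside the 3 that newly passed the threshold, which are given with their adjusted p, and the cause of these differences was not tested. Only 3 pools per group, of which FN2, FT2 and FT3 stand apart, limit every comparison, and 4 reads of Egr2 and of Mag in FT2 limit those values. Fits with only the groups of a comparison and without FN2 and FT2, and with the block over 10 libraries, were chosen after the data were seen.

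With DESeq2's size factors in edgeR, the log2 values were in the interaction Pmp22 0.026. With no normalization factors, genes that met the criteria of the study numbered 309 in FN versus MN. Log2 values were in FT versus MT Prx -0.068, in the interaction Prx -0.027 and Gldn -0.083 and in the averaged effect Mal -0.046. With DESeq2's own test, genes with an adjusted p under 0.05 numbered 20 in FN versus MN, 2 in MT versus MN, 248 in FT versus MT and 1 in the averaged effect. There the log2 values were in the interaction Pmp22 0.026. With limma-voom and sample quality weights, genes with an adjusted p under 0.05 numbered 800 in FN versus MN and 47 in MT versus MN. In that fit, genes that met the criteria of the study numbered 133 in MT versus MN and 520 in FT versus FN. Such log2 values were in FN versus MN Prx 0.26 and Mal 1.01 (adjusted p = 0.00742), in MT versus MN Egr2 -0.17 and Cnp -0.024, in FT versus FN Gldn -0.050, in the interaction Pmp22 0.17 and Gldn -0.28 and in the averaged effect Mbp -0.073 and Mal -0.16. With only the groups of a comparison in the fit, genes with an adjusted p under 0.05 numbered 6 in MT versus MN. In that fit, genes that met the criteria of the study numbered 117 in MT versus MN and 102 in FT versus FN. Over the 10 libraries without FN2 and FT2, genes that met the criteria of the study numbered 305 in FN versus MN, 90 in MT versus MN, 1358 in FT versus FN and 1865 in FT versus MT. Log2 values were in FN versus MN Prx 0.27, in FT versus FN Gldn -0.38, in the interaction Pmp22 0.43 and Gldn -0.81 and in the averaged effect Mag 0.10 and Mal -0.13. Over the 9 libraries without FN2, FT2 and FT3, genes with an adjusted p under 0.05 numbered 54 in FN versus MN, 3 in MT versus MN and 1 in FT versus MT. In that fit, genes that met the criteria of the study numbered 125 in MT versus MN, 140 in FT versus FN and 286 in FT versus MT. There the log2 values were in FN versus MN Prx 0.28, in FT versus FN Mbp -0.16 and Egr2 0.12, in FT versus MT Egr2 0.026, in the interaction Mbp -0.014, Egr2 0.038 and Gldn -0.42 and in the averaged effect Mbp -0.15, Mal -0.16 and Egr2 0.10. With only the groups of a comparison and neither FN2 nor FT2, genes with an adjusted p under 0.05 numbered 728 in FN versus MN. In that fit, genes that met the criteria of the study numbered 117 in FT versus FN and 646 in FT versus MT. Such log2 values were in FN versus MN Prx 0.28, Mal 0.95 (adjusted p = 0.00197) and Cnp 0.48 (adjusted p = 0.0138) and in FT versus FN Gldn -0.35.

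Samples share replicate numbers across groups, but nothing states what a number shares. Deviations of same-numbered samples from their group means correlated from -0.352 (FN3 and FT3) to 0.571 (FN1 and FT1). With 3 samples per group this cannot decide whether a number marks a shared batch, so results are given without and with a replicate block. With the replicate block, genes that met the criteria of the study numbered 302 in FN versus MN. Log2 values were in MT versus MN Egr2 -0.050, in FT versus FN Mbp -0.043, Pmp22 -0.042 and Mag -0.059 and in the averaged effect Mbp -0.15 and Pmp22 -0.0082. Over 10 libraries with the replicate block, genes that met the criteria of the study numbered 224 in FN versus MN, 90 in MT versus MN and 864 in FT versus FN. There the log2 values were in FN versus MN Prx 0.27, in FT versus FN Gldn -0.23, in the interaction Pmp22 0.41 and Gldn -0.60 and in the averaged effect Mal -0.15.

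Leaving out each library in turn gave 0 to 1 in FN versus MN and 0 to 755 in FT versus MT genes with an adjusted p under 0.05, the higher counts without FN1 and FT1, and 136 to 1076 in FN versus MN, 67 to 1531 in FT versus FN, 437 to 2749 in FT versus MT and 9 to 40 in MT versus MN genes that met the criteria. In FN versus MN the values that changed sign were Egr2 -0.86 to 0.0043 and Prx -0.26 to 0.30. In FT versus FN the values that changed sign were Cnp -0.040 to 0.41, Egr2 -1.19 to 0.16, Gldn -0.15 to 1.02, Mag -0.48 to 0.70, Mbp -0.61 to 0.51, Pmp22 -0.44 to 0.31 and Prx -0.67 to 0.033. In FT versus MT the values that changed sign were Mag -0.35 to 1.19, Mal -0.038 to 0.61, Pmp22 -0.28 to 0.47 and Prx -0.38 to 0.53. In MT versus MN the values that changed sign were Cnp -0.19 to 0.28, Egr2 -0.15 to 0.27, Gldn -0.089 to 0.78, Mal -0.064 to 0.60, Mbp -0.59 to 0.092, Pmp22 -0.0068 to 0.065 and Prx -0.82 to 0.023. In the averaged effect the values that changed sign were Cnp -0.0093 to 0.25, Egr2 -0.55 to 0.12, Mag -0.53 to 0.12, Mal -0.17 to 0.17, Mbp -0.38 to 0.18 and Pmp22 -0.20 to 0.17. In the interaction the values that changed sign were Cnp -0.14 to 0.37, Egr2 -1.26 to 0.083, Gldn -0.59 to 0.64, Mag -0.023 to 1.52, Mbp -0.46 to 0.75, Pmp22 -0.47 to 0.27 and Prx -0.37 to 0.55.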
